A study of Homo sapiens with 35 samples.

Results

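The regions described here are the ETS1 binding sites at gene promoters that U-87 MG cells carried both before and after TWEAK treatment. U-87 MG is a human glioblastoma line long kept in culture. TWEAK, a cytokine related to TNF, turns on the non-canonical NF-κB pathway, where the precursor p100, encoded by *NFKB2*, is cut to p52. An ETS1 site was a stretch of overlapping peaks found in both replicate libraries of a condition on chromosomes 1 to 22 and X. Of 1875 ETS1 sites in TWEAK-treated cells, the 556 kept here overlapped an untreated site and had a centre no more than 1000 bp before or 100 bp after a GENCODE transcript start. The other TWEAK sites were 562 common sites away from promoters, 456 promoter sites and 301 other sites seen only after TWEAK, and 152 promoter sites were seen only in untreated cells. The sites were thus selected on measured ETS1 peaks, so their ETS1 enrichment and position are given as a description.

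All cells were serum-starved before treatment. ChIP-seq of ETS1 was made from control cells, 2 libraries untreated and 2 treated with 10 ng/ml TWEAK, for which the labels give 48 h. For p52 there were 2 control libraries without and 2 with TWEAK, and 4 TWEAK-treated *ETS1* KD libraries, 2 made with guide 1 and 2 with guide 2. RNA Pol II was profiled in 2 libraries each, and RNA in 3 libraries each, of untreated control, TWEAK-treated control, TWEAK-treated *ETS1* KD and TWEAK-treated *NFKB2* KD cells. The KDs were CRISPR-Cas9 edits delivered by lentivirus into cell populations, and no untreated KD cells were profiled here. In RNA, *ETS1* measured 71.9, 73.1 and 87.6 CPM (counts scaled to library size) in TWEAK-treated control cells and 28.2, 33.0 and 37.8 CPM in *ETS1* KD cells, while *NFKB2* measured 235, 289 and 346 CPM against 75.6, 92.6 and 105 CPM in *NFKB2* KD cells. Both targeted transcripts were lower than the control in every library of their own KD. Glial and mesenchymal genes checked against the label gave a mixed picture. *VIM* and *CD44* were abundant in all 12 RNA libraries, *NES* measured 76.6 to 145 CPM and *CHI3L1* 55.6 to 385 CPM. *OLIG2* measured only 0.528 to 1.73 CPM, *GFAP* stayed below 0.4 CPM and *SOX2* reached at most 0.0555 CPM. *CDKN2A*, which U-87 MG cells lack, was at 0 in each library.

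ETS1 is the founding member of the ETS family of transcription factors, which share a DNA-binding domain that reads a GGAA core. At housekeeping promoters, ETS factors are known to use a CCGGAAG-type sequence close to the transcript start, where RNA Pol II also assembles. p52 binds κB sequences, usually as a dimer with RelB.

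The sites were short and lay just upstream of transcript starts. Their median width was 593.5 bp (range 210 to 3700 bp), 85 were wider than 1000 bp, and the strongest summit lay within 200 bp of the start at 306 sites (55.0%), with a median position of -129.5 bp. At the upstream edge of the promoter window, the *GFOD1* site had its centre at -982 bp and TWEAK fold enrichments of 5.88 and 8.30, and the excluded *GSE1* site lay at -1011 bp with 4.59 and 3.83. At the downstream edge, the *RNA5S11* site lay at 94 bp with 3.84 and 4.30, and the excluded *PHACTR2* site at 101 bp with 15.7 and 16.3.

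The sequences below are 30 bases of hg38 from the sites with the highest ETS1 enrichment that hold the 7-base ETS sequence, read on the strand that shows it, with the match in capitals. They are shown because ETS factors are known to use this sequence at housekeeping promoters, and because most of the sites lack it.
RPL32, chr3:12841599-12841628, minus strand: aaagagccggagCCGGAAGtgcttgccttt
DENR, chr12:122752753-122752782, minus strand: tgtcgcgagaagCCGGAAGacgggggcgga
ENSG00000290993, chr3:129399469-129399498, minus strand: aaggacccggagCCGGAAGtgcttgccttt
PRRG2, chr19:49580613-49580642, plus strand: agcagaaggcaCCGGAAGtagagctgcccc
DMAP1, chr1:44213408-44213437, plus strand: tacaacaccgaCCGGAAGtgtttctgtcgg
The *RPL32* and ENSG00000290993 stretches are identical at 28 of 30 bases, so reads from one could be placed at the other and these 2 sites may not be independent. In *RPL32*, which encodes a protein of the large ribosomal subunit, the match lies 31 bp upstream of the start, and in *DENR*, a translation re-initiation factor, it lies 60 bp upstream.

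A second set is shown because its sequence sat closest to the ETS1 summits. These are the 4 sites of highest ETS1 enrichment with the 10-base palindrome named after the zinc finger protein KAISO, in capitals on the plus strand.
CIAPIN1, chr16:57447389-57447418: gccttgcgccTCTCGCGAGAggaggaggct
BTBD10, chr11:13463304-13463333: ccagcagcgtTCTCGCGAGAacggtgctct
PRDX1, chr1:45521916-45521945: ccagtagggaTCTCGCGAGAgtcggaacgg
PTPN4, chr2:119759693-119759722: tggcctcgccTCTCGCGAGAtcgcctcctg
*CIAPIN1* encodes a factor for assembly of cytosolic iron-sulphur proteins and *PRDX1* a peroxiredoxin that removes peroxides. The palindrome lies 16 bp into the *CIAPIN1* transcript and 77 bp upstream of the *PRDX1* start.

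Another set gives the bases around the summit, in lower case because no ETS sequence was found within 100 bp, at the strongest sites without one.
RNF187, chr1:228487157-228487186, plus strand: tcaaggcggaggagcgcaccgccgctagga
CAMKMT, chr2:44361936-44361965, plus strand: aagaagttggcaggtcctggcaggggacga
ARHGAP45, chr19:1065071-1065100, plus strand: gagggcgctgcgccctggcgcgcgtctttg
At *RNF187*, which encodes a ubiquitin ligase, 21 of these 30 bases are G or C, and at *ARHGAP45*, a GTPase-activating protein, 23 are.

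ETS1 enrichment at the sites, as the fold over background that the authors' peak caller gave at each summit, was modest for most and differed little between conditions. In untreated cells the median was 7.38 in replicate 1 (range 2.27 to 60.1) and 5.80 in replicate 2 (range 2.09 to 45.1). In TWEAK-treated cells it was 6.77 (1.96 to 46.9) and 6.79 (2.06 to 46.5), between the medians of the untreated replicates. At 123 sites (22.1%) both TWEAK values exceeded both untreated values, at 64 sites (11.5%) both were lower, and at the others the 2 conditions overlapped. The same shares were not computed for other ETS1 sites, so they cannot be read as a trait of these sites. With 2 libraries a condition some sites separate by chance, and the part of differences between libraries was not tested.

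**Figure D1:**
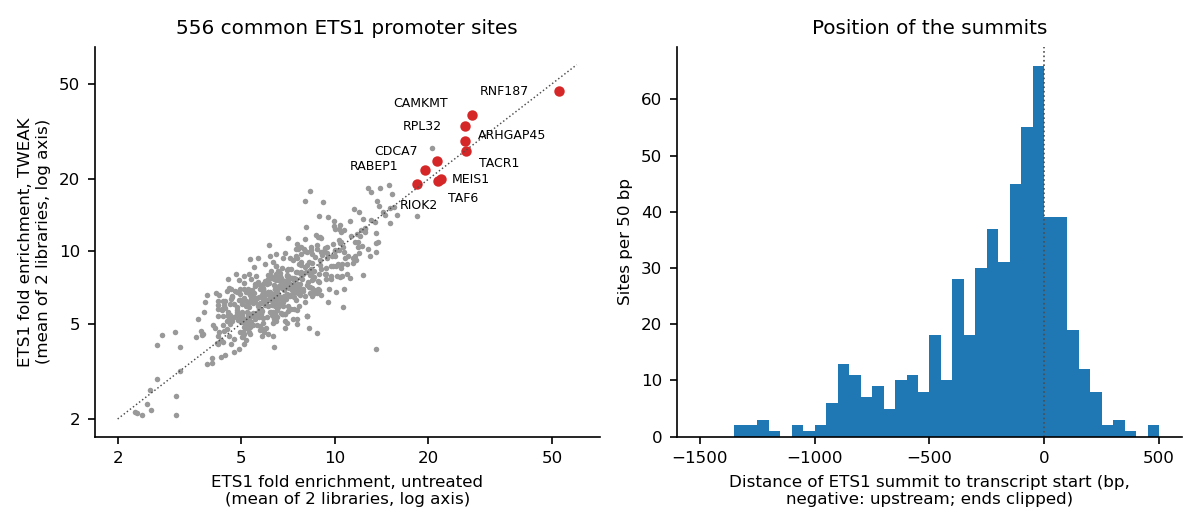
The left panel plots, for each of the 556 sites, the mean ETS1 fold enrichment of the 2 untreated libraries (x axis, log scale) against that of the 2 TWEAK libraries (y axis, log scale), with the 10 strongest sites in red and the line of equal values dotted. The right panel counts the strongest summit of each site by its distance to the transcript start in bins of 50 bp, with a peak just upstream of 0.

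A total of 34 sites had a fold of at least 10 in all 4 ETS1 libraries. The strongest, upstream of *RNF187* (chr1:228486681-228487461), measured 60.1 and 45.1 untreated and 46.9 and 46.5 with TWEAK. *CAMKMT*, which encodes a methyltransferase that modifies calmodulin, followed with 28.5 and 26.9 untreated and 32.0 and 41.8 with TWEAK. *RPL32* measured 28.8 and 23.7 untreated and 35.0 and 31.9 with TWEAK. Both conditions overlapped at *RNF187*, while at *CAMKMT* and *RPL32* both TWEAK values lay above the untreated ones.

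The 10 strongest sites joined very different genes. *RABEP1* (an endosome fusion factor), *TAF6* (a subunit of the general factor TFIID) and *RIOK2* (a kinase of ribosome assembly) are housekeeping genes, and at *RABEP1* the folds were 18.3 and 20.7 untreated and 23 and 20.7 with TWEAK. *MEIS1* is a homeobox factor, *CDCA7* a cell-cycle gene and *TACR1* the receptor of substance P. The *TACR1* site measured 33.1 and 19.7 untreated and 22.6 and 29.9 with TWEAK, although its RNA level in untreated cells was 0.0272 CPM per kb of exon, against 164 CPM per kb for *RPL32*. *ARHGAP45*, with folds of 28.2 and 24.2 untreated and 32.4 and 25.3 with TWEAK, measured 0.0134 CPM per kb. A strong ETS1 peak was therefore found at promoters with high and with almost no RNA.

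The 200 bp around the summit were rich in G, C and CpG and held the ETS sequences searched less often than protein-coding promoters. Other forms of the GGAA core were not searched. Median GC content was 71.0%, with 22 CpGs, against 65.5% and 17 CpGs in the 200 bp from 150 bp upstream to 50 bp downstream of 19970 protein-coding promoters. CCGGAAG, searched on both strands, was present at 55 sites (9.89%), against 12.1% of all protein-coding promoters and 22.2% of the 5666 that had RNA Pol II peaks in all 4 control libraries. The shorter CGGAAG, which every CCGGAAG match includes, was present at 17.3% of the sites against 21.1% and 36.1% of those promoters, and AGGAAG at 17.4% against 23.6% and 23.2%. CGGAAG or AGGAAG was present at 183 sites (32.9%).

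ETS sequences were more frequent at the promoter sites seen only after TWEAK, where CCGGAAG was present at 18.6% and CGGAAG at 28.1%, and less frequent at the common sites away from promoters (2.31% and 8.54%). Within the common promoter sites, the share with CGGAAG was 20.1% in the 139 sites of lowest ETS1 enrichment and 15.1%, 16.5% and 17.3% in the next 3 groups of 139, so it did not rise with enrichment. Among the 157 sites with RNA Pol II in all 4 control libraries, 14% held CCGGAAG, against 4.81% of the 187 sites without RNA Pol II.

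Several other promoter sequences were also less frequent than at protein-coding promoters in general. CCAAT, the NF-Y box, was present at 10.3% of the sites against 28.5%, the NRF1 palindrome at 3.78% against 7.36%, TGACGTCA, the cyclic AMP response element, at 0 of 556 against 2.34%, and TGANTCA, the AP-1 site, at 0.54% against 3.56%. GGGCGG, the SP/KLF box, was present at 49.1% against 55.7%, and a loose κB sequence at 60.1% against 58.9%. The site windows were centred on a summit and the promoter windows on a transcript start, and the part of this difference in the shares was not tested.

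The KAISO palindrome was more frequent than at protein-coding promoters. It was present at 23 sites (4.14%), against 0.526% of all protein-coding promoters and 1.41% of those with RNA Pol II in all 4 control libraries. Of the 23, 15 were among the 157 sites with RNA Pol II in all 4 control libraries (9.55%) and 0 among the 187 without RNA Pol II. The palindrome lay within 25 bp of the summit at 19 of 23 sites (82.6%), against 19 of 55 (34.5%) for CCGGAAG and 88 of 273 (32.2%) for GGGCGG, and its median distance was 7 bp against 33.5 bp and 42.0 bp. Besides the 4 shown above, the 23 include *EIF5*, a translation initiation factor, *CUL3*, a ubiquitin ligase scaffold, *RBM39*, a splicing factor, and *LAMP1*, a lysosomal membrane protein. At the promoter sites seen only after TWEAK the share was 3.73%, so the palindrome was not particular to the common sites.

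**Figure D2:**
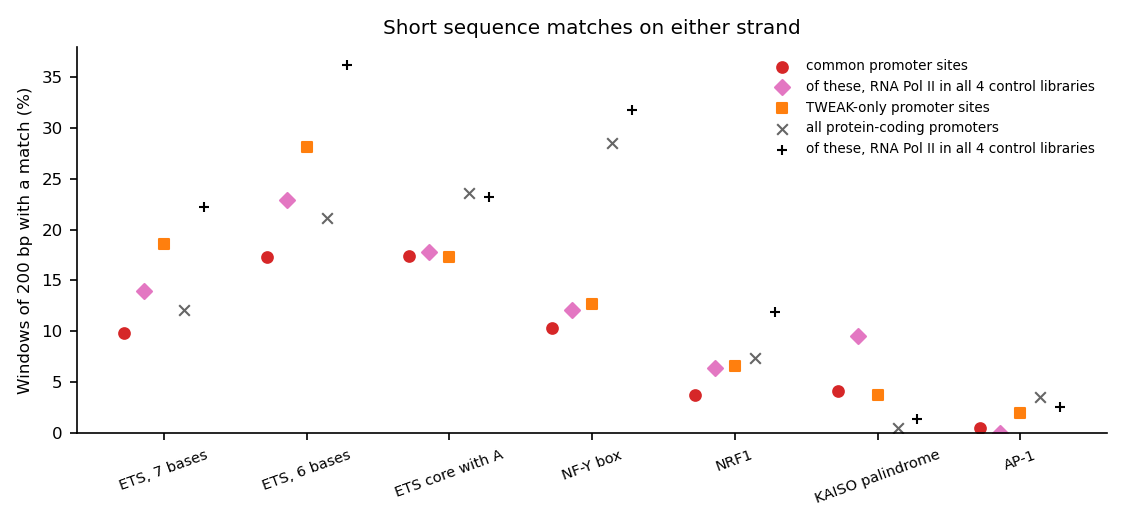
The y axis gives the percentage of 200 bp windows with each sequence on either strand, for the common promoter sites (red circles), those with RNA Pol II in all 4 control libraries (pink diamonds), promoter sites seen only with TWEAK (orange squares), all protein-coding promoters (grey crosses) and those with RNA Pol II in all 4 control libraries (black plus signs). The red circles lie below the grey crosses for 6 of the 7 sequences and above them for the KAISO palindrome.

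The sites touched 684 annotated genes, of which 495 are protein-coding (2.47% of 20015) and 151 are long non-coding RNAs. A single gene had its start in the window at 416 sites, 2 genes at 133 and 3 or 4 at 7, and 39 sites lay between divergent protein-coding genes. No member of the ETS family (27 genes), of the unfolded protein response list (20 genes), of the TWEAK-responsive inflammatory list (16 genes) or of the list of splicing factors (88 genes) had a site. Of 19 genes of the non-canonical NF-κB pathway only *TRAF2* did. Of 86 cytosolic ribosomal protein genes 4 did (*RPL27A*, *RPL32*, *RPS28* and *RPS7*), and of 46 complex I genes 4 did (*NDUFA7*, *NDUFAF8*, *NDUFS3* and *NDUFS7*), against 0 of 60 genes of complexes III to V. The remaining lists had 2 of 78 mitochondrial ribosomal protein genes, 1 of 38 tRNA synthetases, 1 of 56 translation initiation factors, 1 of 48 proteasome subunits, 4 of 85 genes of RNA Pol II, its general factors and Mediator, 4 of 508 ZNF genes, 1 of 75 replication and repair genes, 2 of 189 trafficking genes, 3 of 89 cell division genes and 3 of 88 tubulin, dynein and kinesin genes. *NDUFA7* shares its site with *RPS28* and another annotated coding gene (ENSG00000167774) and is uncertain. Of the textbook ETS1 targets *KDR* and *NRP1* were present (2 of 20), both receptors of vascular endothelial growth factors. *ERN1*, which encodes the stress sensor IRE1α, had no site, since the ETS1 peak nearest to its main start in each of the 4 libraries lay between 15384 and 1431237 bp away.

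Some gene families were grouped after the members had been seen, so their shares are fixed in part by that choice and are no evidence of a theme. Homeobox genes of the HOX, MEIS, DLX, ISL, PITX, LHX, PAX, SATB and TSHZ families had 11 of 75 (14.7%), among them *MEIS1*, *HOXA5*, *PAX6*, *LHX2* and *DLX5*. Other homeobox families were not counted. Against 2.47% of all protein-coding genes, axon guidance ligands and receptors had 9 of 68 (13.2%), including *NRP1*, *NRP2*, *EPHA7* and *UNC5C*, and WNT and R-spondin ligands 4 of 23 (17.4%), namely *WNT2*, *WNT5A*, *RSPO2* and *RSPO3*. FGF ligands and receptors had 3 of 26 and ADAM and ADAMTS proteases 4 of 39. Collagen chains (44 genes), KLF and SP factors (27 genes) and olfactory receptors (416 genes) had none. These families carry no test.

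Genes at the sites were expressed at intermediate levels. In untreated control cells the median of the 494 protein-coding members in the count table was 3.51 CPM per kb (quartiles 0.718 and 10.6), above the 1.08 of all protein-coding genes and below the 8.32 of those with RNA Pol II in all 4 control libraries. At least 1 CPM per kb was reached by 71.1% of members and 50.7% of all protein-coding genes, while 13.4% and 38.2% stayed under 0.1. Members whose site had no RNA Pol II peak in control cells had a median of 0.563 CPM per kb, against 6.32 where all 4 control libraries had one. The median was 4.62 at sites with CGGAAG, 3.33 at sites without it, and 7.68 at sites with the KAISO palindrome. With TWEAK the median over all members was 3.56.

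**Figure D3:**
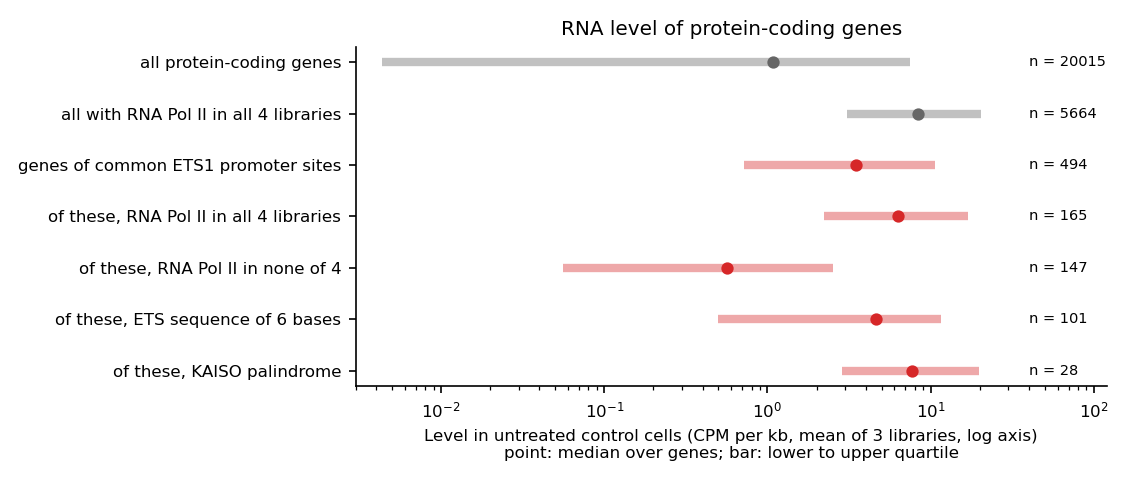
Points give the median RNA level and bars the lower to upper quartile over protein-coding genes in untreated control cells, in CPM per kb of exon on a log axis, with the number of genes at the right. Genes of the common ETS1 promoter sites (red) lie at 3.51, between all protein-coding genes and those with RNA Pol II in all 4 control libraries (grey).

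RNA Pol II was called at some of the sites in every library, with replicates that differed widely. The share of sites that overlapped a peak was 32.7% and 59.7% in the 2 untreated control libraries, 53.4% and 48.6% with TWEAK, 44.1% and 44.8% in *ETS1* KD cells and 50.4% and 34.0% in *NFKB2* KD cells. The values of the *ETS1* KD libraries lay between those of the untreated replicates. The peak lists held between 11110 and 44564 peaks, and the part of list length in these shares was not tested. All 4 control libraries had a peak at 157 sites (28.2%), close to the 28.4% of all protein-coding promoters and below the 41.7% of promoter sites seen only after TWEAK, and none of the 4 had one at 187 sites (33.6%), against 46.8% of all protein-coding promoters. Of the 157 sites, 3 lacked RNA Pol II in both *ETS1* KD libraries and 2 lacked it in both *NFKB2* KD libraries.

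Only 9 sites (1.62%) had RNA Pol II in both TWEAK-treated control libraries and in neither untreated one, and 1 site showed the reverse. Among the 460 sites with a protein-coding gene the count was 6 (1.3%), against 0.661% of protein-coding promoters. The share was 0.877% at promoter sites seen only after TWEAK and 1.96% at common sites away from promoters, so such gains were not particular to these sites. *RASSF5*, a Ras effector, had fold enrichments of 29.4 and 13.2 with TWEAK, 8.58 in 1 *ETS1* KD library and 12.5 in 1 *NFKB2* KD library. *IL7*, which encodes a lymphocyte growth factor, had 11.0 and 5.70 with TWEAK, 4.89 in 1 *ETS1* KD library, and 3.04 and 3.35 with *NFKB2* KD. *DPYSL3*, a cytoskeletal regulator of neurite growth, had 5.78 and 5.73 with TWEAK and no peak in the 4 KD libraries. The others of the 9 were *DENND2B*, *AP4E1*, *APCDD1L* and 3 loci without a protein-coding gene. Of the 9, 5 had no peak in any KD library, a share not computed for the 132 protein-coding promoters that gained RNA Pol II likewise. The 9 were chosen by their control peaks, so this count does not measure dependence on either KD target. CGGAAG was present at 0 of the 9, against 17.3% of all 556 sites. None of the protein-coding genes at the 9 sites was called as changed in RNA with TWEAK (edgeR, adjusted p under 0.05), which does not show unchanged RNA. In that comparison *IL7* had a log2 fold change of 0.18 (SE 0.26, adjusted p = 0.839) and *DPYSL3* of 0.46 (SE 0.14, adjusted p = 0.117). The site that lost RNA Pol II (ENSG00000285498, of no assigned biotype) had untreated folds of 3.70 and 3.62.

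p52 was found at few of the sites. A peak overlapped 2.88% and 1.62% of them in the untreated control libraries, 4.86% and 13.3% with TWEAK, 0.899% and 2.88% in *ETS1* KD cells made with guide 1, and 3.78% and 3.6% with guide 2. The peak lists held 554 and 363 p52 peaks in untreated cells, 3439 and 11678 with TWEAK and 1352 to 4183 in the KD libraries, so the highest share came from the longest list. No p52 peak was present in any of the 8 libraries at 473 sites (85.1%). The common ETS1 sites away from promoters had p52 peaks far more often, with 35.9% and 30.1% in untreated cells and 31.0% and 26% with TWEAK. Those peaks were weak, with median folds of 2.79 and 2.62 untreated and 3.16 and 3.32 with TWEAK. Over the whole p52 lists the medians were 3.021 and 3.144 untreated and 7.255 and 7.004 with TWEAK.

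Both TWEAK-treated control libraries had a p52 peak at 22 sites (3.96%), against 1.63% of all protein-coding promoters, 3.25% of those with RNA Pol II in all 4 control libraries and 3.51% of the promoter sites seen only after TWEAK. Among the 460 sites with a protein-coding gene, the like set for the protein-coding promoters, the count was 14 (3.04%). Of the 22, 5 held CGGAAG and 13 had no p52 peak in untreated cells. *CYREN*, which encodes a regulator of DNA double-strand break repair, had p52 folds of 12 and 38.9 with TWEAK, 7.77 and 16.1 with guide 1, and 27.3 and 30.7 with guide 2. *MARVELD1* had 6.67 and 22.5 with TWEAK and a peak in all 4 KD libraries, between 6.18 and 12.9. At *MARVELD1* each KD value lay below the higher TWEAK replicate, and at *CYREN* the KD values fell between the TWEAK replicates or below the lower one.

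A p52 peak remained in at least 1 *ETS1* KD library at 17 of the 22 sites, in both guide 2 libraries at 12 and in both guide 1 libraries at 4. Of the 326 protein-coding promoters with p52 in both TWEAK libraries, 31 had no peak in any of the 4 KD libraries, and the difference from 5 of 22 was not tested. The 5 sites with no p52 peak in any of the 4 KD libraries were those of *ADAM22*, *EHMT1*, *WDR74*, *NDUFA7* and a U2 small nuclear RNA gene, whose TWEAK folds were between 3.11 and 9.55. Other sites with p52 after TWEAK only were at *PTMA* (8.39 and 23.1), which encodes prothymosin, *FGF12* (9.31 and 19.3), *HTR5A* (9.85 and 5.32) and *AP4E1* (5.23 and 11.7).

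At 9 of the 22 sites p52 was already called in an untreated library, and several of these lie in repeated sequence. They include a site at the 5S ribosomal RNA gene *RNA5S6*, 2 near the pseudogene *ROCK1P1* and 3 on the short arm of chromosome 21, where the untreated p52 folds were between 1.90 and 3.53. Reads from repeated sequence cannot be placed with certainty. *PGK1*, a glycolytic enzyme, had untreated p52 folds of 24.0 and 8.38, TWEAK folds of 31.3 and 65.8, and KD folds of 20.2, 89.1, 158 and 508. *EEF1A1*, the elongation factor that delivers aminoacyl-tRNA, had 6.82 and 15 untreated, 17.1 and 24.1 with TWEAK, and between 9.10 and 17.7 in 3 of 4 KD libraries. Promoters of these 2 genes are also widely used in expression vectors, and a contribution of vector DNA to the reads was not tested.

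**Figure D4:**
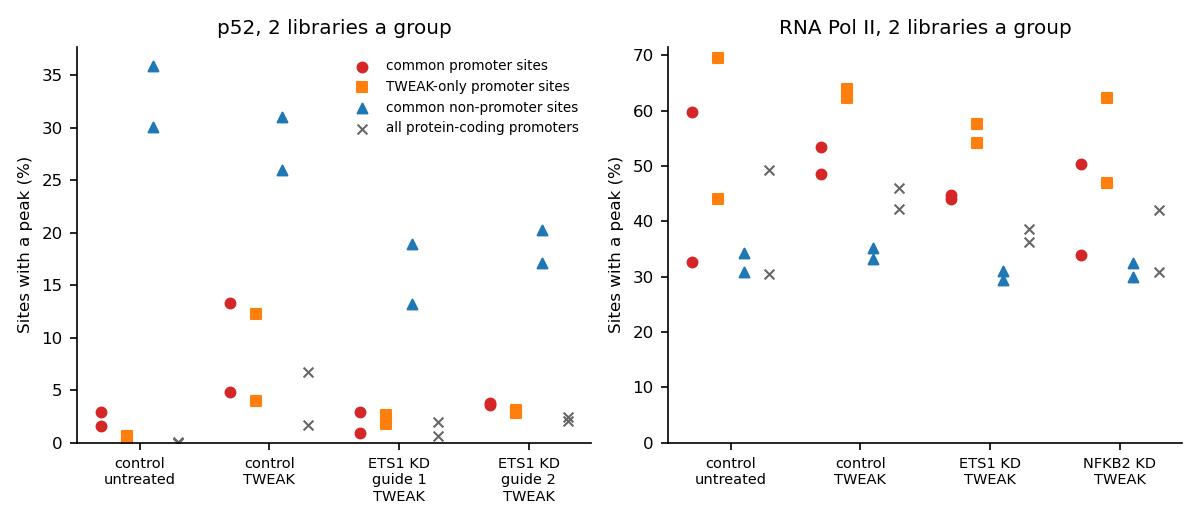
Each point is 1 library and gives the percentage of sites that overlap a p52 peak (left) or an RNA Pol II peak (right), for the common promoter sites (red), promoter sites seen only with TWEAK (orange), common non-promoter sites (blue) and all protein-coding promoters (grey). In the p52 panel the red points stay under 14% in every group and the blue ones lie above them, while the RNA Pol II panel shows replicates of 1 group as far apart as 32.7% and 59.7%.

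The next question was whether RNA from the genes at these sites changed with TWEAK. Of 684 genes, 536 passed the filter on low counts and were tested, with edgeR's quasi-likelihood test and adjustment over all 16879 genes. TWEAK raised 10 of them (1.87%), against 1.55% of all genes tested, and lowered 16 (2.99%), against 1.53%. The median log2 fold change was -0.01 over the members and 0.02 over all genes, and 48.7% of members lay above 0. An unadjusted p under 0.05 was reached by 21.6% of members and 14.7% of all genes. DESeq2 called 23 raised and 32 lowered, but its share over all genes was not computed, so these counts cannot be read as a trait of the members. Leaving out a single TWEAK or untreated library lowered the counts to as few as 6 and 3 (without TWEAK replicate 2 or 3, or untreated replicate 1 or 2).

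The raised genes were led by *TFPI2*, an inhibitor of serine proteases in the extracellular matrix. It measured 785, 708 and 766 CPM untreated and 2440, 2340 and 2400 CPM with TWEAK (log2 fold change 1.67, SE 0.16, adjusted p = 0.000193). *ALDH1A3*, an aldehyde dehydrogenase that makes retinoic acid and marks mesenchymal glioma cells, measured 159, 164 and 171 CPM untreated and 461, 448 and 574 CPM with TWEAK (1.59, SE 0.14, adjusted p = 0.000126). For both genes every treated library lay above every untreated one.

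*TRAF2*, an adaptor that restrains NIK and so the non-canonical pathway, rose from 16.5, 16.7 and 16.4 CPM to 30.1, 30.9 and 32.4 CPM (log2 fold change 0.91, SE 0.09, adjusted p = 0.000249). *GPR176*, an orphan receptor, rose by a log2 fold change of 1.08 (SE 0.12), *RFTN1*, a lipid raft protein, by 0.85 (SE 0.13) and *TPM1*, a tropomyosin, by 0.58 (SE 0.10). These 6 genes stayed called in every alternative fit and without any single library. *KY* (0.84, SE 0.20), the repressor *MSC* (0.81, SE 0.16) and *MARCHF3* (0.57, SE 0.13) also rose. *KY* and *MSC* lost the call in 4 of the 6 omissions of a library, and *MARCHF3* in all 6 and with no filter on low counts.

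Among the lowered genes, *CYP1B1*, a cytochrome P450 that oxidises steroids and xenobiotics, measured 145, 151 and 139 CPM untreated and 65.6, 70.9 and 83.3 CPM with TWEAK (log2 fold change -0.98, SE 0.12, adjusted p = 0.000636). *PRUNE2* fell from 25, 33.9 and 24.8 CPM to 12.4, 11.4 and 12.3 CPM (-1.21, SE 0.17, adjusted p = 0.0017). These 2 genes stayed called in every alternative. The largest decreases were at *ADAMTS14*, a procollagen-processing protease (-1.92, SE 0.47, adjusted p = 0.0439), and *AK5*, an adenylate kinase (-1.36, SE 0.25, adjusted p = 0.01), but *ADAMTS14* lost the call without any single library and under the replicate block, and *AK5* lost it in 4 of the 6 omissions.

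The other named genes that fell were *CD24* (-1.18, SE 0.23), which has near-identical copies in the genome and is uncertain, *PPP2R2B* (-1.0, SE 0.20), the cadherin *CDH7* (-0.92, SE 0.19), the hedgehog acyltransferase *HHAT* (-0.92, SE 0.20), *HOXA5* (-0.86, SE 0.19) and *FAM81A* (-0.82, SE 0.18). Each of them lost the call when at least 4 of the 6 libraries were left out in turn. None of the 4 ribosomal protein genes, the 4 complex I genes or the 2 textbook ETS1 targets passed the test. *RPL32* had a log2 fold change of 0.11 (SE 0.16) and *KDR* of -0.52 (SE 0.20).

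In *ETS1* KD cells, compared with control cells under TWEAK, 3 members rose (0.56%, against 0.255% of all genes tested) and 7 fell (1.31%, against 1.13%). The median log2 fold change was 0.02 over the members and 0.01 over all genes. DESeq2 called 9 and 16, and leaving out 1 library gave as few as 0 raised (without *ETS1* KD replicate 3 or TWEAK control replicate 2) and 2 lowered (without *ETS1* KD replicate 3). With *NFKB2* KD, edgeR called 0 members, against 0.00592% of all genes raised and 0.0237% lowered. An unadjusted p under 0.05 was reached by 27 of 536 (5.04%) against 3.91% of all genes, while DESeq2 called 0 raised and 2 lowered. The shares called by DESeq2 over all genes were not computed for either KD.

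The gene that fell most in *ETS1* KD cells was *MEF2C*, a MADS-box factor of muscle, vessel and neural development. It measured 7.35, 7.44 and 6.36 CPM in TWEAK-treated control cells and 2.02, 1.69 and 1.97 CPM in the KD (log2 fold change -1.89, SE 0.25, adjusted p = 0.00227), and stayed called in every alternative. It carried 2 sites, with lowest ETS1 folds of 5.91 and 5.80, and neither had RNA Pol II. *ADAMTS5*, an aggrecan-degrading protease, also with 2 sites, fell from 147, 160 and 200 CPM to 46.0, 58.1 and 48.9 CPM (-1.73, SE 0.31, adjusted p = 0.0129). Without *ETS1* KD replicate 1 or 3, or TWEAK control replicate 3, *ADAMTS5* was no longer called.

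*FGF18*, a growth factor, fell from 3.77, 3.98 and 3.86 CPM to 1.76, 2.08 and 1.37 CPM (-1.16, SE 0.19, adjusted p = 0.00822). *RUBCNL*, an autophagy gene (-1.32, SE 0.21), *RSPO3*, which amplifies WNT signalling (-0.95, SE 0.20), and *GPR137B*, a lysosomal membrane protein (-0.73, SE 0.15), also fell. Without *ETS1* KD replicate 3, *FGF18* and *RUBCNL* were not called, and *RSPO3* and *GPR137B* lost the call without any single library. *BMPER*, a modulator of bone morphogenetic proteins, rose from 14, 11.7 and 11.0 CPM to 20, 21.4 and 23.4 CPM (0.82, SE 0.13, adjusted p = 0.00642), a call lost without *ETS1* KD replicate 3 or TWEAK control replicate 2. *MARCHF3* (0.60, SE 0.13) and *ENC1* (0.53, SE 0.12) rose too, but lost the call without any single library. With the replicate block, 1 member was raised in place of 3, and *MARCHF3* and *ENC1* were not called.

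*MSC*, a basic helix-loop-helix repressor also known as musculin, was named in both comparisons. It measured 20.4, 23.5 and 28.2 CPM in untreated control cells, 38.5, 40.5 and 47.4 CPM with TWEAK and 18.4, 23.9 and 22.6 CPM in *ETS1* KD cells with TWEAK. Its adjusted p was 0.0175 for TWEAK and 0.00839 for the KD, the latter lost without *ETS1* KD replicate 1. *BMPER* showed the opposite order, with 19.4, 18.7 and 22.8 CPM untreated, lower values with TWEAK (-0.73, adjusted p = 0.0103) and higher ones in the KD. The 2 comparisons share the TWEAK-treated control libraries, so they are not independent. In *NFKB2* KD cells *MSC* measured 26.5, 24.9 and 33.6 CPM (log2 fold change -0.57, SE 0.16, adjusted p = 0.749).

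**Figure D5:**
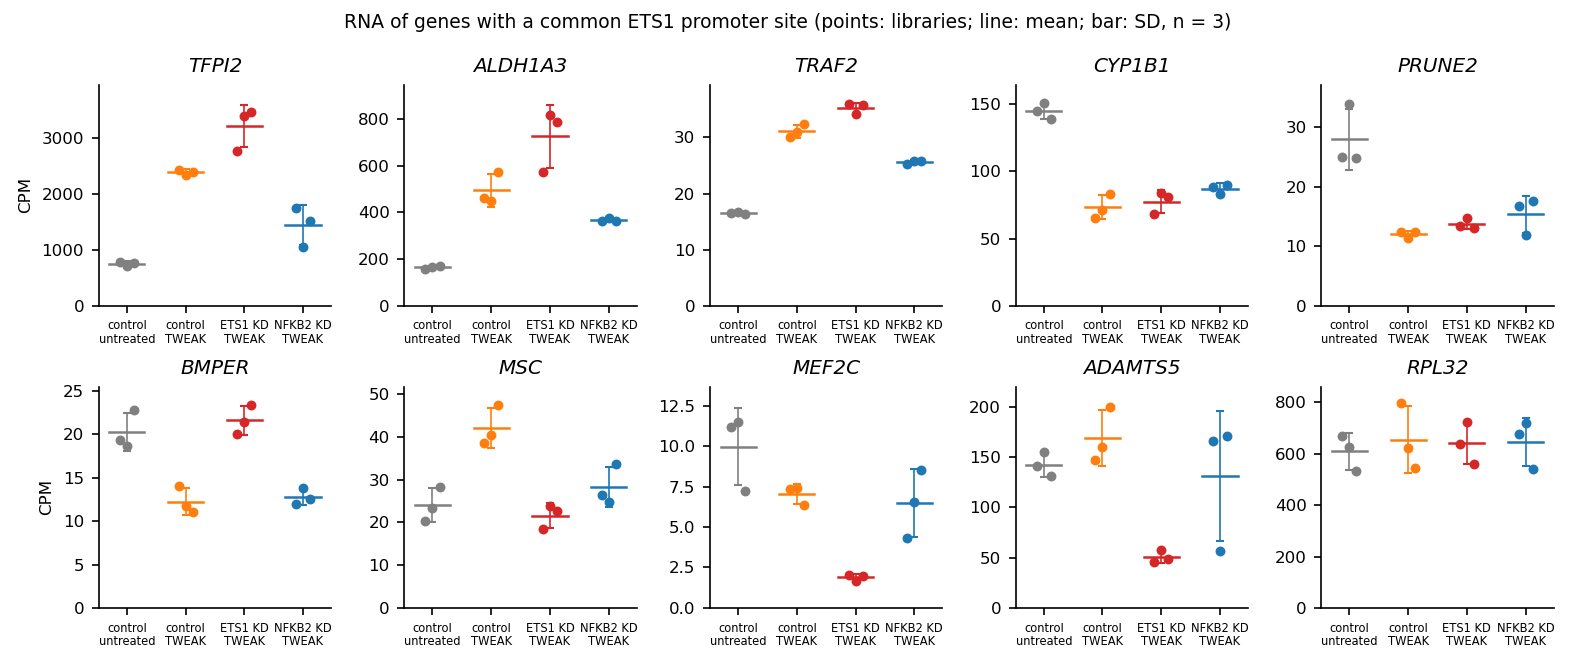
RNA levels in CPM (y axes, each from 0) of 10 genes with a common ETS1 promoter site in the 4 groups of 3 libraries, with the mean as a line and the SD as a bar. *TFPI2*, *ALDH1A3* and *TRAF2* lie higher in every TWEAK-treated library than untreated, *MEF2C* and *ADAMTS5* lie lower in every *ETS1* KD library than in any TWEAK-treated control library, and *RPL32* overlaps in all 4 groups.

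Among the 28 genes named for their RNA, CGGAAG was present within 100 bp of the summit at 0 and AGGAAG at 7, among them *ALDH1A3*, *MEF2C*, *MSC* and *ADAMTS5*. Of all 106 tested members at a site with CGGAAG, TWEAK raised 0 and lowered 2 (1.89%), and 0 changed with *ETS1* KD. In that KD comparison edgeR gave 9 (8.49%) an unadjusted p under 0.05, against 13.6% of all members tested and 12% of all genes. Among the 430 at sites without CGGAAG, TWEAK raised 10 (2.33%) and lowered 14 (3.26%), and *ETS1* KD raised 3 (0.698%) and lowered 7 (1.63%). Over all genes tested, TWEAK raised 1.55% and lowered 1.53%, and *ETS1* KD raised 0.255% and lowered 1.13%. Counts this small among 106 genes lie near those shares. The difference between these sets was not tested. A p52 peak was present in at least 1 library at the site of 5 of the 28 genes (among them *BMPER*, *CYP1B1*, *HHAT* and *TFPI2*), and RNA Pol II at the site of 20. Of all 556 sites, 85.1% had no p52 peak and 30.9% no RNA Pol II peak in any of the 8 libraries of each. ChIP-seq and RNA-seq of cell populations cannot tell a change in some cells from a change in all of them.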

How the data were processed

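Samples were grouped by their GEO labels. For RNA-seq, the authors used Trimmomatic, STAR (hg38) and featureCounts and deposited whole-number counts. Total counts per library were 28384201 to 40192606. Counts were tested with edgeR 4.0.16 in R 4.3.3 (filterByExpr, TMM, quasi-likelihood test, 4 groups of 3 in one fit, Benjamini-Hochberg adjustment over 16879 genes, called at an adjusted p under 0.05). The study describes the replicates as biological. CPM values use TMM library sizes, and levels between genes are per kb of exon.

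For ChIP-seq, the authors mapped reads with Bowtie2, called peaks in each library with MACS2 against input and removed blacklisted regions. The deposited lists give the fold enrichment ratio and the −log10 p- and q-values at each summit. They hold no read counts, so depth is unknown. Which input served which library is not given in the sources used here. Of 3 input samples no values were used. Overlaps needed 1 bp. Peaks at protein-coding promoters were counted within 300 bp of 1 start per gene in GENCODE release 44. Motifs were searched in hg38 with Python 3.11.15 and pysam 0.24.0.

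The sites, gene lists and tests were chosen with earlier results of these data known. The genes named for RNA were those called with no overlap between replicates, at most 10 in each direction, with the largest log2 fold changes. Some members are counted but not reported here by name. The count table had 0 value columns left unused.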

Additional observations from a re-analysis of the deposited data

How the results depend on the processing

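The choice of peaks mattered most for the sites. In place of 556, 320 sites remained at a −log10 q of at least 5, 1430 with a peak in either replicate, and 585 to 840 without 1 ETS1 library (840 without untreated replicate 2). The p52 share of 3.96% became 14.2% with a peak in any library, 1.98% with the strongest peaks in equal numbers and 4.86% to 13.3% without 1 library. The RNA Pol II share of 28.2% became 23% at an overlap of 0.5 of the shorter interval, 20.5% at a −log10 q of at least 5, 66.4% with a peak in any library and 28.8% to 41.4% without 1 library (41.4% without untreated replicate 1). CCGGAAG was found at 14.4% of sites in 400 bp and 18.7% in the whole site.

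For TWEAK, raised and lowered members numbered 23 and 32 with DESeq2, 25 and 37 with a GC and length correction, 17 and 31 with no filter, 24 and 39 when calls needed an unadjusted p up to 0.05 with a 1.5-fold change, and 6 to 14 and 3 to 12 without 1 library. With the replicate block there were 16 and 18, and 32 and 47 with the block and the GC and length correction. For *ETS1* KD the same settings gave 9 and 16, 11 and 12, 6 and 15, 5 and 22, and 0 to 2 and 2 to 6 without 1 library, with 1 and 9 under the replicate block and 17 and 15 under the block with the correction. For *NFKB2* KD, raised members numbered 5 with no filter and 5 at the unadjusted threshold. Lowered ones numbered 2 with DESeq2, 1 with no filter, 1 under the block with the correction and 3 at the unadjusted threshold. The shares called over all genes were not computed for these settings, so the counts show only how the calls depend on the setting. The *ETS1* KD median of 0.021 became 0.059 with the correction, 0.062 with the block and the correction, and -0.005 to 0.031 without 1 library (negative without *ETS1* KD replicate 3). The *NFKB2* KD median of 0.003 became 0.039 with no filter and -0.009 to 0.065 without 1 library. The cause of these shifts was not tested. Same-numbered libraries had correlations of both signs, from -0.304 to 0.492, which does not settle whether the numbers pair the samples. Of the named genes, 8 of 20 for TWEAK and 1 of 10 for *ETS1* KD were called in every setting. Peak lists without read counts and 2 replicates a group limit what the ChIP-seq values can resolve.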
